A study of Mus musculus with 2 samples.

Results

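The data describe 7 genes of superoxide chemistry, 5 of the phagocyte NADPH oxidase (Cybb, Cyba, Ncf1, Ncf4 and Rac2) and 2 superoxide dismutases (Sod1 and Sod2), in tumor-associated neutrophils (TANs) from Smad3-WT and Smad3-KO mice. They were chosen by symbol from the 31053 genes of the count matrix, and all 7 had transcripts. The tumor was Lewis lung carcinoma (LLC), a mouse lung cancer line, grown under the skin of C57BL/6 mice aged 8 to 12 weeks that were either wild-type (Smad3+/+) or Smad3-deficient (Smad3-/-). CD11b+ Ly6G+ cells were sorted by flow cytometry and sequenced on a droplet platform that reads the 5′ end of each transcript, with 1 library per genotype, each from 8 pooled tumors. The tumor cells themselves carried normal Smad3 in both groups, while every host cell of a Smad3-KO mouse lacked it from birth. In this allele exon 8 is missing and exon 7 is interrupted, and no drug was given to either group.

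The phagocyte NADPH oxidase is the enzyme with which neutrophils and macrophages turn oxygen into superoxide. A membrane cytochrome made of Cybb (gp91phox) and Cyba (p22phox) carries the electrons, and it becomes active when cytosolic organizers such as Ncf1 (p47phox) and Ncf4 (p40phox) and the small GTPase Rac2 join it at the membrane. Superoxide dismutases convert superoxide to hydrogen peroxide, Sod1 mainly in the cytosol and Sod2 in mitochondria, and Sod2 is also a well known target gene of NF-kB in activated myeloid cells.

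The Smad3-WT library held 4116 cell barcodes and 23951400 unique molecular identifiers (UMIs, each a counted transcript), and the Smad3-KO library 2514 barcodes and 4214290 UMIs. A filter on cell quality left 3520 and 2433 cells with a median of 1318.5 and 1199 UMIs. The upper limit of 20000 UMIs took 382 cells from Smad3-WT and 0 from Smad3-KO. Clustering gave 14 clusters, and markers placed 51.2% of the Smad3-WT cells and 43.9% of the Smad3-KO cells in a neutrophil-like class (1803 and 1068 cells). The remaining cells of the sort included macrophage or monocyte-like cells (1054 and 57), T or NK-like cells (52 and 419), B-like cells (4 and 693), fibroblast-like cells (46 and 67), dendritic-like cells (21 and 40) and LLC-like cells (333 and 27), so the labelled cell type did not hold for every sorted cell. The neutrophil-like class itself was made of other clusters in the 2 libraries, mainly cluster 1 in Smad3-WT (1272 cells, against 37) and cluster 2 in Smad3-KO (856 cells, against 21), and a cluster mostly of 1 library cannot be told apart from that library. The 2 libraries shared 73 barcode sequences, and leaving these out moved no neutrophil-like ratio beyond its interval. Smad3 transcripts were not fewer in the Smad3-KO library (219 in neutrophil-like cells, against 27), but 5′ reads lie outside the deleted part of the gene, so this checks nothing, and the libraries carry the names of their labels. Cluster 10 (207 and 62 cells) could not be named, and orders of classes cover the named classes only. Levels are in CPM, the UMIs of a gene scaled to a total of 1000000 UMIs over the cells, with an exact 95% Poisson interval (shares of cells have a Clopper-Pearson interval), and are compared within a gene only. With 1 library per genotype no difference could be tested, and every interval covers counting error only, not the spread between mice.

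In neutrophil-like cells 2 of the 7 genes were at least 2-fold higher in Smad3-KO TANs, Sod2 and Cybb, where 7.24% of the 6047 genes with at least 20 UMIs were. None of the 7 was at least 2-fold lower, where 18.9% of those genes were. The middle ratio (Smad3-KO level over Smad3-WT level) was 1.18 for the 7 genes and 0.782 for all genes tested. Of all genes 49 had a higher ratio than Sod2 and 66 a higher ratio than Cybb. The oxidase genes did not move as 1 unit, with ratios from 0.824 for Cyba to 8.87 for Cybb, and Sod1 gave no detectable difference at this depth. Because Sod2 and Cybb set the pattern, the 250 bases before their transcription starts in RefSeq (GRCm38.p6) are shown, with capitals for each match to the 5 motifs searched on both strands (GAGGAA, an ETS-type core, GGGCGG, a GC box, CAGAC, a SMAD-type core, an NF-kB-type motif and an ETS-IRF composite).
Sod2, chr17:13007589-13007838, plus strand: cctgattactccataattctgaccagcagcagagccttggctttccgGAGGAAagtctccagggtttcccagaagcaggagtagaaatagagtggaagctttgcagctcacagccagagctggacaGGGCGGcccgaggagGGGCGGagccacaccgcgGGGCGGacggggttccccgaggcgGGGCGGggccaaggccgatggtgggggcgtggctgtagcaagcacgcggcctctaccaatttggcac
Cybb, chrX:9469325-9469574, minus strand: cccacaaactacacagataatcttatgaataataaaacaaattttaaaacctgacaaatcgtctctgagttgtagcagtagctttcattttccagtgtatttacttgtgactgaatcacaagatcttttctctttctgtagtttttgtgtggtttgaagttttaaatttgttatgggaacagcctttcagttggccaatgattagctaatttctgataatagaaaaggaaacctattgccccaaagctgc
The Sod2 window held 4 GC boxes and 1 ETS-type core, and its last 22 bases lie in the first exon of 1 annotated Sod2 transcript. It held no match to the NF-kB-type motif in the 1 form searched. It does hold a run of G followed by TT and a run of C, which that form does not cover. Whether this stretch is an NF-kB-type site was not tested. Each of the 5 motifs was searched in 1 form only, so a site of another form is not excluded in any window. The Cybb window held none of the 5 motifs in the forms searched and lies in an intron of a longer Cybb transcript. It does hold the letters GGAA, a part of GAGGAA that was not searched alone. Of all 32841 promoter windows 32.7% held the GC box, 23.3% the ETS-type core, 42.2% the SMAD-type core, 2.30% the composite and 1.41% the NF-kB-type motif. Windows were found for 5 of the 7 genes, Ncf4 and Rac2 having no entry, and the SMAD-type core occurred once, in that of Sod1. These matches describe letters in a window and say nothing of binding.

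**Figure D1:**
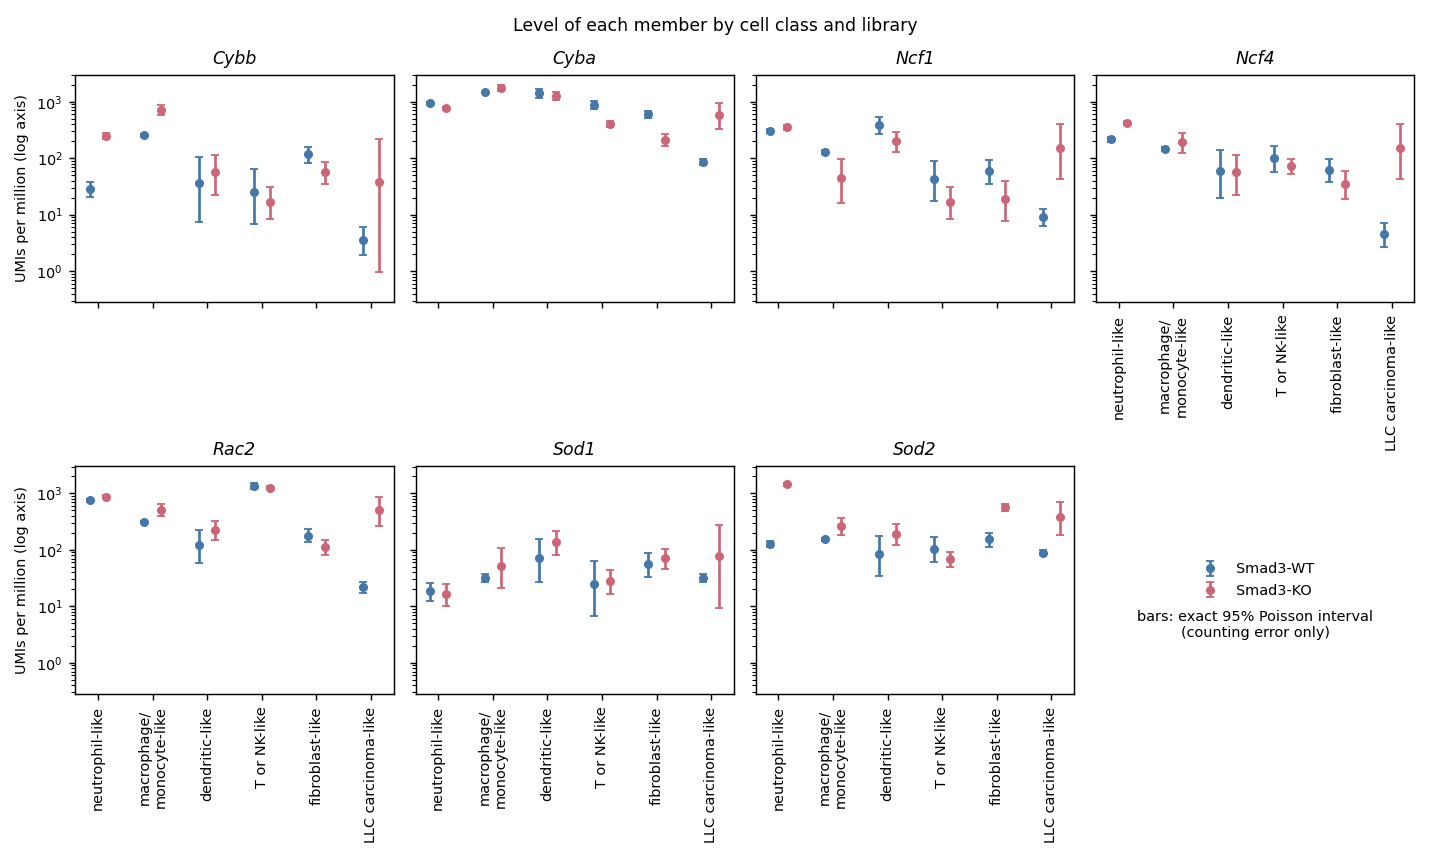
Level of each of the 7 genes (CPM, log axis) in 6 marker-defined cell classes, blue for the Smad3-WT and red for the Smad3-KO library, with exact 95% Poisson intervals. Sod2 stands at 1446 in Smad3-KO neutrophil-like cells against 128 in Smad3-WT, whereas the intervals of Sod1 overlap in each class. The name of the Smad3-KO LLC-like cells is uncertain.

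Cybb, the electron-carrying subunit of the cytochrome (chromosome X, 9435252 to 9487771, minus strand), was, among the named classes, highest in macrophages in the Smad3-WT library. Macrophage or monocyte-like cells had 253 CPM (239 to 268) and fibroblast-like cells 117 (82.9 to 161). The unnamed cluster 10 had 299 (267 to 334). Dendritic-like cells (36.2, from 3 UMIs), neutrophil-like cells (28.1, 20.6 to 37.5) and T or NK-like cells (24.8, 6.76 to 63.5) came next and did not differ beyond counting error, and LLC-like cells had 3.54. T and NK cells should lack Cybb, and in cells thinned to 500 UMIs each it was found in 1.11% of Smad3-WT neutrophil-like cells and in 0.955% of Smad3-KO T or NK-like cells. Before thinning, at a median of 742 and 1308 UMIs, the shares were 2.16% and 1.67%. Of the 52 Smad3-WT T or NK-like cells 0 held it after thinning, with an interval up to 6.85%. The level in Smad3-WT neutrophil-like cells could thus not be told from that of T or NK-like cells, which in Smad3-WT rested on 4 UMIs. The neutrophil-like level lay above that of LLC-like cells (1.94 to 5.94), which were deeper, with a median of 13105 UMIs. Macrophage RNA free in the droplets would give 48.2% of the neutrophil-like level, judged by the middle quotient of 12 macrophage markers. A quotient is a marker's level in neutrophil-like cells over that in macrophage or monocyte-like cells. The quotients ranged from 0.0170 to 0.589, so this share is rough. The middle quotient was 0.0535 in neutrophil-like cells, and the same markers gave 0.0144 in LLC-like cells. The part of free RNA in the difference between these 2 classes was not tested.

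In Smad3-KO neutrophil-like cells Cybb reached 249 CPM (223 to 278, 317 UMIs), a ratio of 8.87 (6.50 to 12.4) to Smad3-WT, and was found in 5.99% of thinned cells (12% before thinning, at a median of 1012.5 UMIs). The ratio varied with the setting, from 1.59 (0.438 to 13.2) at a clustering resolution of 0.1, with 16 Smad3-WT cells, to 28.9 (20.8 to 41.0) without cluster 2. It was 2.44 with cells classed one by one and 16.8 with background subtracted. Most of the Smad3-KO UMIs lay in few cells. A set of 54 Smad3-KO cells of cluster 6 carried at least 10 UMIs of Camp, Ngp and Ltf, granule genes of immature neutrophils, and held 198 of the 317 Cybb UMIs at a level of 1409 CPM (1219.9 to 1619.9). The Smad3-WT library had 0 such cells among its 1803 neutrophil-like cells, which allows a share of up to 0.166% by counting error. The summed level of 7 neutrophil precursor markers, Camp, Ngp and Ltf among them, was 10.4 CPM in Smad3-WT and 7516 in Smad3-KO, with Mpo, Elane and Ctsg at 0 in both. Only 3 cells of the class had between 5 and 20 of these granule UMIs, so few cells lay near the threshold, which was chosen after seeing the data. Without the granule-gene cells the Smad3-KO level was 105 and the ratio 3.74 (2.64 to 5.38). Most of the other Cybb UMIs (113 of 119) were in cluster 2, where Cybb stood at 112 (92.1 to 134) in Smad3-KO cells and at 131 (15.9 to 473, 2 UMIs) in the 21 Smad3-WT cells, while the Smad3-WT cells of clusters 1, 6 and 8 lay between 25.0 and 30.5.

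The order of the classes for Cybb in the Smad3-KO library was macrophage or monocyte-like (705, 570.3 to 862), then neutrophil-like and B-like (249 and 236, not different beyond counting error), then fibroblast-like, dendritic-like and T or NK-like cells (57.0, 56.3 and 16.9). Cybb was higher in macrophage or monocyte-like cells of Smad3-KO, with a ratio of 2.78 (2.23 to 3.43), in clusters 3 (3.36, 2.47 to 4.50) and 9 (2.64, 1.79 to 3.78) alike. This rests on 57 cells of the Smad3-KO library, and the ratio ranged from 1.47 to 4.52 over the alternatives tried. B cells are known to express this gene, and the 485 Smad3-KO cells of cluster 4, the cluster with B cell markers and few neutrophil marker UMIs, had 211 (181 to 246). Over the 13 class-by-library sums with at least 20 cells the genes most like Cybb were Dhrs3 (r = 0.92), Tcirg1 (r = 0.89) and Psap (r = 0.87), a description over sums that share libraries and depth.

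Cyba, the smaller subunit that stabilizes Cybb (chromosome 8, 122424776 to 122432930, minus strand), showed the opposite direction in neutrophil-like cells. Its level was 933 CPM (887 to 981) in Smad3-WT and 769 (721 to 818) in Smad3-KO, a ratio of 0.824 (0.759 to 0.893). Without the granule-gene cells, in which Cyba stood at 1673, the ratio was 0.703 (0.643 to 0.768). Scaling by the median of ratios, which raised every neutrophil ratio by 0.26 on the log2 scale, gave 0.985 (0.908 to 1.07), so at that scale no difference was detectable. The ratio turned to 1.41 (1.25 to 1.59) when cluster 2 was left out. In both libraries Cyba was, among the named classes, highest in macrophage or monocyte-like cells (1475 and 1751) and dendritic-like cells (1413 and 1263), while the unnamed cluster 10 had 1699.98 (1622 to 1781) and 1088 (959 to 1230.3). Among macrophages and monocytes the ratio was 1.19 (1.04 to 1.35), and it lay below 1 in 5 of 14 alternatives. Neutrophil-like cells followed, T or NK-like cells had 874 in Smad3-WT and 411 in Smad3-KO, and LLC-like cells of Smad3-WT were lowest with 85.5. Of the 7 genes 5 had at least 20 UMIs in T or NK-like cells. The ratio of 0.470 (0.382 to 0.580) made Cyba the 1 gene of these 5 at least 2-fold lower there, where 12.7% of 4992 genes were. Ncf1 had too few UMIs to be counted. Its level was 43.4 CPM (17.4 to 89.4, 7 UMIs) in Smad3-WT and 16.9 (8.44 to 30.3, 11 UMIs) in Smad3-KO, with intervals that overlap. None of the 5 was at least 2-fold higher, where 11.5% were. Scaling by the median of ratios would raise all ratios of this class by 0.40 on the log2 scale. Its nearest patterns over the 13 sums were those of Edem1 (r = 0.92), Hmox2 (r = 0.92) and Ncoa4 (r = 0.90).

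Ncf1, the organizer that carries the activation signal to the cytochrome (chromosome 5, 134220053 to 134229625, minus strand), was highest in neutrophil-like and dendritic-like cells. Neutrophil-like cells had 301 CPM (275 to 329) in Smad3-WT and 354 (322 to 388) in Smad3-KO, a ratio of 1.18 (1.03 to 1.34). Without the granule-gene cells, in which Ncf1 stood at 754 (618 to 913), the ratio was 1.01 (0.877 to 1.16). Within Smad3-WT the level ran from 238 (212 to 266) in cluster 1 to 705 (593 to 831) in cluster 8, a spread wider than that between the libraries. Dendritic-like cells had 386 (264 to 546) in Smad3-WT, not different from neutrophil-like cells beyond counting error, and 201 (130.1 to 297) in Smad3-KO. Macrophage or monocyte-like cells had 127 (117 to 137) in Smad3-WT and 44.5 (16.3 to 96.9, 6 UMIs) in Smad3-KO, a ratio of 0.351 (0.128 to 0.769). Free neutrophil RNA, judged by the middle quotient of 10 neutrophil markers, would account for 18.6% of the first level and 74.9% of the second. The quotients ranged from 0.0582 to 0.301 in Smad3-WT and from 0.0177 to 0.207 in Smad3-KO, so these shares are rough. Cluster 11, which held 240 Smad3-WT cells of this class, carried neutrophil markers at 18063 CPM, and without it the ratio was 0.302 (0.0818 to 0.778). The ratio was 0.818 (0.327 to 1.70) with no filter on cells, 0.944 (0.430 to 1.80) with the MetaCell filter and 0.108 with background subtracted. The genes most like Ncf1 were Marcksl1 (r = 0.92), Ostf1 (r = 0.91) and Mcemp1 (r = 0.90).

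Ncf4, the organizer that binds membrane lipid and supports oxidase activity on phagosomes (chromosome 15, 78244801 to 78262580, plus strand), was, among the named classes, highest in neutrophil-like cells of both libraries and higher in those of Smad3-KO. The unnamed cluster 10 had 236 (207 to 267) in Smad3-WT, not below neutrophil-like cells, and 123 (82.6 to 177) in Smad3-KO. The level was 218 CPM (196 to 242) in Smad3-WT and 415 (381 to 452) in Smad3-KO, a ratio of 1.90 (1.66 to 2.18), and thinned cells with the transcript went from 10.7% (9.31 to 12.2) to 19.1% (16.8 to 21.6), or from 17.1% to 34.7% before thinning. It stayed above 1 when single groups of cells were left out. Without the granule-gene cells the ratio was 1.78 (1.54 to 2.05), without cluster 2 it was 2.43 (1.98 to 2.97), and within cluster 6 with the granule-gene cells left out it was 2.16 (1.30 to 3.61). The 21 Smad3-WT cells of cluster 2 had 393 (144 to 855, 6 UMIs) and the Smad3-KO cells of that cluster 387 (349 to 427). Macrophage or monocyte-like cells were second with 146 (136 to 157) and 193 (126 to 283), and T or NK-like cells had 99.2 and 72.3, the Smad3-WT values of these classes not differing beyond counting error. Zfp263 (r = 0.93), Trim30a (r = 0.90) and Vav1 (r = 0.90) had the most similar patterns.

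Rac2, the GTPase of blood cells that switches the oxidase on and also serves cell movement (chromosome 15, 78559167 to 78572783, minus strand), was highest in T or NK-like cells. T or NK-like cells had 1369.9 CPM (1195 to 1563) in Smad3-WT and 1261 (1176 to 1350.3) in Smad3-KO. Neutrophil-like cells had 752 (711 to 795) and 877 (826 to 930.1), a ratio of 1.17 (1.07 to 1.27) that became 0.998 (0.914 to 1.09) without the granule-gene cells. Among Smad3-WT neutrophil-like cells the level was 601 (559 to 646) in cluster 1, 1099 (944 to 1271) in cluster 6 and 1409.8 (1250.0 to 1584) in cluster 8, so the clusters of 1 library again differed more than the libraries. In macrophage or monocyte-like cells Rac2 stood at 316 (300.1 to 332) and 512 (398 to 648), a ratio of 1.62 (1.26 to 2.07) that was 1.03 (0.909 to 1.17) at a clustering resolution of 0.1 and 1.20 as a mean over cells. In Smad3-KO B-like cells had 929 (878 to 982), not different from neutrophil-like cells beyond counting error. This joins cluster 4 at 1139 (1067 to 1216), above neutrophil-like cells, and cluster 12 at 615 (550 to 685), below them. Cluster 12 also carried neutrophil markers at 19889 CPM. The pattern of Rac2 was closest to those of Itgal (r = 0.94), Arhgdib (r = 0.93) and Gmfg (r = 0.92).

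**Figure D2:**
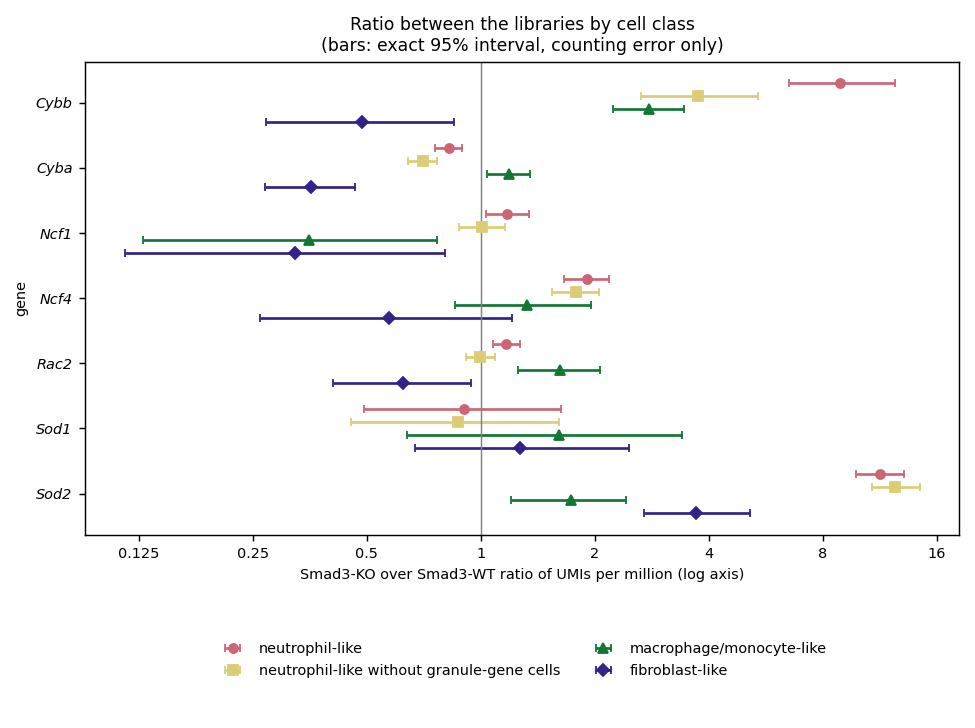
Ratio of Smad3-KO to Smad3-WT (log axis) for each gene in neutrophil-like cells, in the same cells without the 54 granule-gene cells, and in the macrophage or monocyte-like and fibroblast-like classes, with exact 95% intervals of counting error. Cybb moves from 8.87 to 3.74 without the granule-gene cells, whereas Sod2 stays high (11.3 and 12.4).

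Taking the 5 oxidase genes as 1 sum, neutrophil-like cells had 2233 CPM (2161 to 2306) in Smad3-WT and 2664 (2575 to 2755) in Smad3-KO, a ratio of 1.19 (1.14 to 1.25). The ratio was 0.988 (0.938 to 1.04) without the 54 granule-gene cells, whose own sum was 6363 (5953 to 6795), and 2.05 (1.92 to 2.19) without cluster 2. The direction of the sum thus rested on which cells were counted. At a clustering resolution of 0.1, which left 16 Smad3-WT cells in the class, the sum (0.798) and the ratios of Ncf1 (0.939), Ncf4 (0.822) and Rac2 (0.774) were below 1. In cells thinned to 500 UMIs, 61.2% (58.9 to 63.5) of Smad3-WT and 64.6% (61.7 to 67.5) of Smad3-KO neutrophil-like cells held at least 1 transcript of the 5. Exactly 4 of the 5 were seen together in 9 of 1803 Smad3-WT cells and in 14 of 1068 Smad3-KO cells, and all 5 in 0 and 2 cells.

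Sod1, the cytosolic dismutase (chromosome 16, 90220754 to 90226329, plus strand), was scarce in every class. Neutrophil-like cells were lowest in both libraries with 18.3 CPM (12.4 to 26.2, 30 UMIs) in Smad3-WT and 16.5 (10.2 to 25.3, 21 UMIs) in Smad3-KO. The ratio was 0.901 with an interval from 0.490 to 1.63, so no difference was detectable at this depth. Dendritic-like cells had the highest values, 72.5 (26.6 to 158) and 137 (79.6 to 219), and fibroblast-like cells followed with 55.5 and 70.5. No neighbouring pair of classes in this order differed beyond counting error in either library, but classes further apart did. Neutrophil-like cells had 0.569 (0.371 to 0.844) of the macrophage or monocyte-like level in Smad3-WT and 0.318 (0.130 to 0.886) in Smad3-KO. Tmem168 (r = 0.91), Htra2 (r = 0.90) and Mrpl14 (r = 0.90) were its closest patterns.

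Sod2, the mitochondrial dismutase (chromosome 17, 13006846 to 13040063, plus strand), had the highest ratio of the 7 genes over all neutrophil-like cells, above Cybb, but with background subtracted the order turned (12.1 for Sod2 and 16.8 for Cybb). In Smad3-WT it ran from 84.5 CPM in dendritic-like to 154 in macrophage or monocyte-like and fibroblast-like cells. No neighbours in that order differed beyond counting error, but classes further apart did. LLC-like cells had 89.6 (80.5 to 99.4), below macrophage or monocyte-like cells (144 to 166). Neutrophil-like cells were within this range with 128 (111 to 146, 209 UMIs), 0.827 (0.707 to 0.965) of the macrophage or monocyte-like level. In Smad3-KO the neutrophil-like level was 1446 (1380.4 to 1513, 1838 UMIs), a ratio of 11.3 (9.81 to 13.1), and Sod2 was found in 41.2% (38.2 to 44.2) of thinned cells against 5.44% (4.43 to 6.58). Before thinning the shares were 60.6% and 9.04%. Over the filtered Smad3-KO cells, neutrophil-like cells held 72.7% of the Sod2 UMIs but 30.7% of all UMIs. Over the filtered Smad3-WT cells the 2 shares were 13.5% and 13.4%. The granule-gene cells did not carry this difference, since they had 320.3 (234 to 429) and the ratio without them was 12.4 (10.8 to 14.4).

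The excess of Sod2 followed cluster 2, the cluster that held 856 of the 1068 Smad3-KO neutrophil-like cells. Its Smad3-KO cells had 1757 CPM (1676 to 1840.3) and its 21 Smad3-WT cells 589 (269.5 to 1119, 9 UMIs), a ratio of 2.98 (1.57 to 6.53). The Smad3-WT cells of clusters 1 and 8 had 129.6 (110.5 to 151) and 129.98 (84.9 to 190.4), and those of cluster 6 had 67.1 (33.5 to 120.1). The 37 Smad3-KO cells of cluster 1 gave 179 (58.0 to 417), and the 114 Smad3-KO cells of cluster 6 with few granule UMIs 136 (70.4 to 238), both with intervals that overlap those of Smad3-WT in the same cluster. Without cluster 2 the ratio was 1.93 (1.43 to 2.58), and weighted within the clusters shared by the libraries it was 2.93. Cluster 2 was drawn from the same transcripts, so its Sod2 level describes the cells and does not test them. Over the 13 sums Prkd3 (r = 0.87), Chil1 (r = 0.87) and Irak3 (r = 0.85) were most like Sod2.

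**Figure D3:**
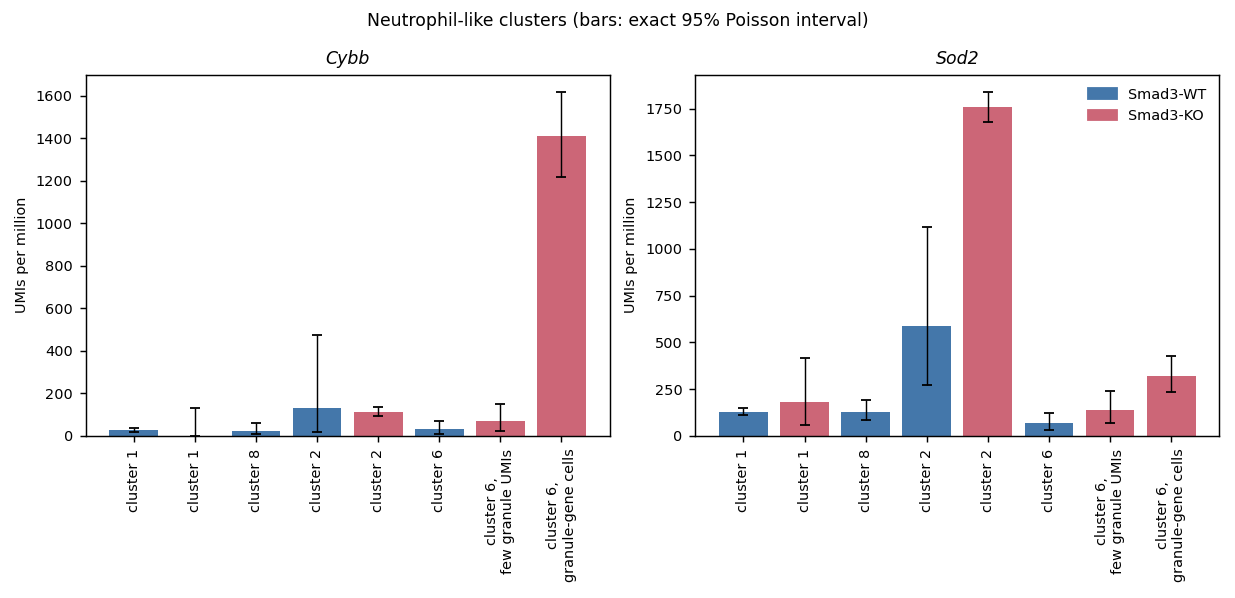
CPM of Cybb (left) and Sod2 (right) in the neutrophil-like clusters, blue for Smad3-WT and red for Smad3-KO, with exact 95% Poisson intervals and the Smad3-KO cells of cluster 6 split by their granule-gene UMIs. Cybb peaks at 1409 in the granule-gene cells and Sod2 at 1757 in the Smad3-KO cells of cluster 2.

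Tnf-positive neutrophil-like cells had more Sod2 in each library. The level was 206 CPM against 117 in Tnf-negative cells of Smad3-WT, a ratio of 1.77 (1.22 to 2.50), and 1786 against 1239.7 in Smad3-KO, a ratio of 1.44 (1.31 to 1.58). Tnf-positive cells were deeper, with a median of 812.5 against 738 UMIs in Smad3-WT and 1134 against 969.5 in Smad3-KO, and the part of depth in this was not tested. Tnf was also among the leading genes of cluster 2, whose Smad3-KO cells had Sod2 at 1757 CPM. The split was not made within clusters, so the part of cluster make-up was not tested either. Of the oxidase genes only Ncf1 in Smad3-WT had an interval apart from 1 in this split (1.55, 1.22 to 1.96).

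Outside the neutrophils Sod2 was also higher in Smad3-KO fibroblast-like cells, with 569.8 CPM (495 to 652) against 154 (114 to 203), a ratio of 3.70 (2.70 to 5.14). It was the 1 gene of the 7 at least 2-fold higher there, where 8.49% of 4839 genes were. Of the other 6 genes 3 were at least 2-fold lower in these cells, Cyba (0.356, 0.270 to 0.465), Ncf1 (0.324, 0.115 to 0.805) and Cybb (0.486, 0.271 to 0.850), where 7.21% of genes were. The summed macrophage markers in fibroblast-like cells moved the same way, from 2809 CPM in Smad3-WT to 1207 in Smad3-KO, as did the neutrophil markers, from 3019 to 1788, and their part in the lower oxidase genes was not tested. In macrophage or monocyte-like cells Sod2 went from 154 (144 to 166) to 267 (187 to 369.8), a ratio of 1.73 (1.20 to 2.42). Free neutrophil RNA would give 51.0% of the Smad3-KO level, a rough share from the middle of marker quotients that ranged from 0.0177 to 0.207. With that background subtracted the ratio was 0.907, and at a clustering resolution of 0.1 it was 1.09 (0.877 to 1.34). In these cells 1 of the 7 genes was at least 2-fold higher (Cybb, where 19.7% of 9705 genes were) and 1 at least 2-fold lower (Ncf1, where 13% were).

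Among the B-like cells, nearly all of them from Smad3-KO, Sod2 split by cluster. Cluster 4 had 46.3 CPM (32.6 to 63.8) and cluster 12, with 208 cells, had 579 (517 to 647). The cells of cluster 12 also carried neutrophil markers at 19889 CPM against 420.2 in cluster 4, B cell markers at 4469 against 12859.7, and a median of 2182 against 1209 UMIs. Whether cluster 12 holds droplets with more than 1 cell was not tested.

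**Figure D4:**
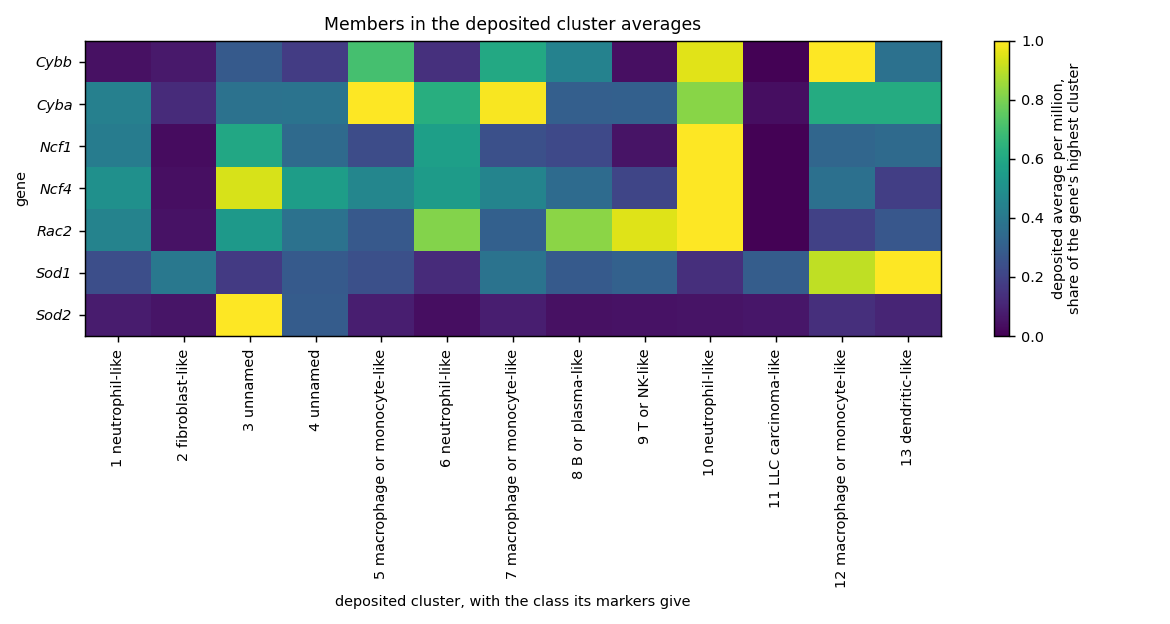
The 7 genes in the authors' 13 cluster averages, rescaled to the same total and shown as a share of each gene's highest cluster (color scale from 0 to 1), with the class that markers give to each cluster. Sod2 stands out in cluster 3 at 2002 CPM, and all 5 oxidase genes are high in cluster 10.

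The deposited averages of the authors' own 13 clusters, which pool both libraries, gave the same genes another view. Their cluster 10, which carries the granule genes Ngp, Camp and Ltf, had the highest Ncf1 (585 CPM), Ncf4 (425) and Rac2 (1329) of the 13 clusters, and its Cybb (457) was second to the 478 of cluster 12, which carries macrophage markers. Cyba was highest in the macrophage or monocyte-like clusters 5 and 7 (1729 and 1714). Sod2 had 2002 in cluster 3, then 582 in cluster 4, and between 70.9 and 268 in the other 11. Clusters 3 and 4 had too few markers to be named. Sod1 was highest in the dendritic-like cluster 13 (91.2) and lowest in the neutrophil-like cluster 6 (11.2). The LLC-like cluster 11 was lowest for each of the 5 oxidase genes, from 2.23 for Cybb to 63.1 for Cyba.

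Partners of the oxidase are set here against a middle ratio of 0.782 over all genes in neutrophil-like cells. Rac1, the widely expressed relative of Rac2, went from 609 to 474 CPM (0.778, 0.702 to 0.862), near that middle ratio. Cybc1, a chaperone of the cytochrome, had 28.7 and 19.7 (0.685, 0.404 to 1.14), an interval that holds 1. Hvcn1, a proton channel that sustains oxidase activity, was higher in Smad3-KO, with 20 UMIs against 2 (a ratio of 12.9, 3.13 to 114). None of 9 genes of other oxidases reached 20 UMIs in these cells, where Duoxa1 and Noxo1 had 1 UMI each and Duox1 and Duox2 none, and Nox1 and Nox3 were at 0 in all filtered cells.

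Genes that remove peroxide and keep thiols reduced had a lower middle ratio than all genes in neutrophil-like cells. The median ratio was 0.542 over the 14 with at least 20 UMIs, against 0.782 over all genes. Of these 14, 6 were at least 2-fold lower (18.9% of all genes were) and none at least 2-fold higher (7.24% of all genes were). In ratio 11 were below 1 and 3 above. Ratios below 1 were common in this class, where 3718 of 6047 genes had a lower ratio than Sod1 (0.901). Gpx1, a glutathione peroxidase, went from 690.4 to 355 CPM (0.514, 0.460 to 0.574), Prdx1, a peroxiredoxin, from 152 to 66.1 (0.436, 0.336 to 0.561), and Hmox1, heme oxygenase, from 973 to 555 (0.570, 0.521 to 0.623). Prdx5, a mitochondrial and peroxisomal peroxiredoxin, went the other way, from 1711 to 2538 (1.48, 1.41 to 1.56). Macrophage markers had a middle quotient of 0.0535 in Smad3-WT neutrophil-like cells and 0.00758 in those of Smad3-KO. The summed LLC markers were 26.9 and 1.57 CPM. The part of free RNA in the ratios of this list was not tested. Enzymes that supply NADPH had a median ratio of 1.12 over 4 genes, with Taldo1 lower (0.469, 0.417 to 0.528), Pgd near 1 (0.973, 0.8003 to 1.18), Tkt at 1.27 (0.968 to 1.65) and G6pdx, named after its value was seen, higher (2.22, 1.48 to 3.37). Idh1 was rare, with 12 and 7 UMIs (0.751, 0.251 to 2.07). The median ratio of this NADPH list was 0.905 in cluster 1, 0.570 in cluster 2 and 3.78 in cluster 6, the cluster of the granule-gene cells. Of 10 genes that respond to NF-kB all were above 1, 6 of them at least 2-fold (7.24% of all genes were), with a median of 2.59 against 0.782 over all genes. The 4 most abundant of these were among the smaller ratios, with Cxcl2 at 1.45 (1.43 to 1.46), Ccl3 at 1.42 (1.39 to 1.46), Ccl4 at 1.27 (1.24 to 1.30) and Il1b at 1.01 (0.984 to 1.03). Within clusters, 7 of the 10 genes were above 1 in cluster 1, 8 in cluster 2 and 6 in cluster 6. The medians were 1.50, 1.41 and 1.41, against 1.07, 0.740 and 0.876 over all genes. Tnf and Tnfaip3 were among the leading genes of cluster 2, and the part of cluster make-up was not tested.

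Between the 7 genes themselves, patterns over the 13 class-by-library sums were closest for Ncf4 and Rac2 (r = 0.81), followed by Cyba and Ncf4 (r = 0.70) and Cyba and Ncf1 (r = 0.68). Sod2 had r = 0.54 with Cybb, 0.48 with Ncf4 and 0.01 with Sod1. These values describe 13 sums that share 2 libraries.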

How the data were processed

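Single-cell libraries were made with a droplet 5′ kit from sorted CD11b+ Ly6G+ cells, 1 per genotype. The deposited count matrix holds whole UMI counts per gene and barcode, which the authors made with Cell Ranger (3.0.2 per the matrix header) against mm10. The strand setting of the counting is not given in the sources used here, so reads of Cyba, Ncf1 and Sod1 cannot be told from those of genes overlapping on the other strand (Gm20388, Gtf2ird2 and Scaf4). The deposited library averages are a signal that the authors made as each gene's share of the library's UMIs times the median UMIs per barcode, and the deposited averages of 13 clusters have their own scale. The columns of fold changes and p-values beside these averages are the authors' own comparisons and were not used. The 2 barcode suffixes were matched to the labels because the matrix sums, scaled to 1311 UMIs, equal the deposited library averages over 19114 genes (largest difference 3.58e-08, against 31.8 for the other suffix).

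The quality filter required 200 or more genes, a mitochondrial share below 10%, and more than 500 and fewer than 20000 UMIs per cell. The cells were log-normalized and clustered with scanpy 1.11.5 (2000 variable genes, 100 principal components, 15 neighbours, Louvain resolution 1, seed 1). A cluster was named where at least 3 markers of a class were at least 2-fold higher in it and found in at least 10% of its cells. The doublet caller marked 0 of 5953 cells, so it did not work and no doublets were removed. The alternative filter from the methods, called the MetaCell filter here, allowed a mitochondrial share of 20% and no upper limit on UMIs. UMIs were summed per library and class. Free RNA was estimated from the median quotient of a class's markers, and the range of quotients was not carried into background-subtracted ratios. Ratios have an exact conditional interval (scipy 1.17.1), and lists count genes with at least 20 UMIs past 2-fold. Shares of cells were taken after thinning each cell to 500 UMIs. Likeness is Pearson's r over log2 (CPM + 5) in 13 sums among 7353 genes. The members, named genes (the 3 most alike per member and the 4 most abundant and those at 0 of each list, with exceptions stated) and lists were chosen with earlier results of these data known. The scripts were tested on simulated data. Promoter windows are from RefSeq (GRCm38.p6) and gene positions from GENCODE for GRCm38. 1 gene related to the oxidase is not reported here.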

Additional observations from a re-analysis of the deposited data

Results flagged for a closer look

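Ratios of Smad3-KO to Smad3-WT lay on opposite sides of 1 in different cell classes, each with an interval apart from 1, for 4 of the 7 genes. The share of all genes that meet this rule was not counted, so the 4 of 7 cannot be set against it. The difference between classes was not tested, since each genotype had 1 library. Cybb had 8.87 in neutrophil-like and 2.78 in macrophage or monocyte-like cells but 0.486 in fibroblast-like cells. Cyba had 1.19 in macrophage or monocyte-like cells but 0.824 in neutrophil-like, 0.470 in T or NK-like and 0.356 in fibroblast-like cells. Ncf1 had 1.18 in neutrophil-like cells but 0.351 in macrophage or monocyte-like, 0.520 in dendritic-like and 0.324 in fibroblast-like cells. Rac2 had 1.17 in neutrophil-like and 1.62 in macrophage or monocyte-like cells but 0.622 in fibroblast-like cells. The fibroblast-like ratios rest on 46 Smad3-WT and 67 Smad3-KO cells. From Smad3-WT to Smad3-KO their summed macrophage markers went from 2809 to 1207 CPM and their neutrophil markers from 3019 to 1788. The part of this in the ratios was not tested. Ratios of fibroblast-like, T or NK-like and dendritic-like cells were not computed under other settings. The intervals of the macrophage or monocyte-like ratios did not stay apart from 1 under every setting. Ncf1 was 0.944 (0.430 to 1.80) with the MetaCell filter and 0.818 (0.327 to 1.70) with no filter on cells. Rac2 was 1.03 (0.909 to 1.17) at a clustering resolution of 0.1, and Cyba lay below 1 in 5 of 14 settings. The neutrophil-like ratios did not stay apart from 1 either. Cyba was 0.985 (0.908 to 1.07) with median-of-ratios scaling and 1.41 (1.25 to 1.59) without cluster 2. Without granule-gene cells Ncf1 was 1.01 (0.877 to 1.16) and Rac2 0.998 (0.914 to 1.09). Of 16 settings 14 kept Cyba, 15 Ncf1, 14 Rac2 and 16 Cybb on the same side of 1.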

How the results depend on the processing

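Of 239 values under other settings 160 stayed within their interval, 63 moved and 16 changed side of 1. A change of side was counted only where the main interval lay apart from 1. Among ratios whose main interval held 1, Sod1 in neutrophil-like cells kept its side in 13 of 15 settings. Ncf4 in macrophage or monocyte-like cells kept its side in 13 of 14. In neutrophil-like cells Cybb and Sod2 stayed above 1 in 16 of 16 settings (1.59 to 28.9 and 1.93 to 13.5), and Sod1 stayed within its interval in 15 of 15. At a resolution of 0.1, which put most Smad3-WT neutrophils in another class and left 16, Sod2 was 2.11, the oxidase sum 0.798, Ncf1 0.939, Ncf4 0.822 and Rac2 0.774. Cells classed one by one gave 8.30 for Sod2 and 1.34 for the sum, and median-of-ratios scaling 13.5 and 1.43. The sum was 1.27 with the MetaCell filter, 1.11 as a mean over cells, 1.08 without the top 5% of cells, 1.25 with background subtracted and 0.995 without precursor-led clusters. Settings chosen after seeing the data gave, within shared clusters, 2.93 for Sod2, 1.54 for the sum and 1.13 for Cyba, without the largest Smad3-KO cluster 1.93, 2.05 and 1.41, and without granule-gene cells 0.988 for the sum and 0.998 for Rac2. In macrophage or monocyte-like cells Cyba was 0.856 at resolution 0.1, 0.866 with 30 principal components and with another seed, 0.946 with cells classed one by one and 0.909 without the top 5%, the sum was 0.940 at resolution 0.1, and Sod2 was 0.907 with background subtracted. The cause was not tested. No paired analysis was possible because each genotype has 1 library and no replicate numbers, and for the same reason no replicate could be left out.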
